A study of Mus musculus with 12 samples.

Results

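The comparison set hearts of mice given lipopolysaccharide (LPS, the outer-membrane molecule of Gram-negative bacteria) together with Xijiao Dihuang decoction (XJDHT, a traditional Chinese herbal decoction) against hearts of mice given saline. Its members are 8 of the 12 libraries of the series, 4 of the group LPS+XJDHT and 4 of the group Control, taken by their group label. All mice were wild-type C57BL/6, and every library was made from heart RNA depleted of ribosomal RNA. Control mice received saline in place of both agents for 3 days. LPS+XJDHT mice received LPS at 10 mg/kg and XJDHT at 50 mg/kg/d for 3 days, and the 4 mice of the group LPS, which lend their spread to the tests, received LPS at 10 mg/kg and saline for 3 days. The labels give each library as 1 mouse, with no age or sex, and no group of mice received XJDHT without LPS. A difference between LPS+XJDHT and Control therefore holds the effect of LPS, of the decoction and of both together, and these cannot be told apart within the comparison. The LPS+XJDHT files also list a different set of transcripts from the Control and LPS files. Any difference in how the sets of files were made cannot be told apart from the group either. What the comparison shows is the state of the LPS-treated heart, with the decoction also given, relative to a heart that received neither.

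LPS is bound by LBP and CD14 and sensed by TLR4, whose signalling passes through MYD88 to NF-kB and through TRIF to type I interferon. NF-kB drives chemokines, cytokines and adhesion molecules, interleukin 6 acts through STAT3 on acute-phase genes, and interferons act through STAT2 and IRF9 on a shared set of antiviral and antigen-presentation genes. The working heart muscle relies mostly on mitochondrial oxidation of fatty acids, and reduced contraction during sepsis is known to accompany reduced expression of genes of mitochondrial energy supply.

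Each library held the equivalent of 73726567 to 77789708 fragments. Values are FPKM (fragments per kilobase of transcript, per sequenced library of a standard size), summed over the Ensembl transcripts of a gene. Another 8377 transcripts, listed in both sets of files without an Ensembl name, were left out. The value of a gene that holds any of them is a partial sum. Whether reads moved between used and unused transcripts was not tested. Only transcripts that both the Control and the LPS+XJDHT files list were used, so that 583 genes listed in the Control and LPS files alone and 317 genes listed in the LPS+XJDHT files alone were not compared. Of the 3156 transcripts in the first set alone, 99.97% were higher in Control than in LPS, which leaves the lists of genes below short of genes that were on in Control hearts only. LPS+XJDHT replicate 2 stood apart in its Y-linked genes, with Ddx3y and Uty at 0 FPKM and Eif2s3y at 0.199 FPKM, where Ddx3y lay between 5.38 and 24.7 FPKM in the other libraries. It also had the lowest mean level of the 4 LPS+XJDHT libraries in 20 of 42 gene lists, and list counts that its absence moved by over 1.5 times are also given without it.

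Of 11509 genes tested, 3278 (28.5% of those tested) were higher and 1234 (10.7%) lower in LPS+XJDHT than in Control hearts by limma on log2(FPKM + 1), at a Benjamini-Hochberg adjusted p below 0.05. A change of at least 2-fold was reached by 867 of these upward (7.53%) and by 350 downward (3.04%). The 8 libraries separated by group in 4845 genes (42.1%), with every LPS+XJDHT library above every Control library in 3474 (30.2%) and below in 1371 (11.9%). A lack of overlap given for a gene below is to be read beside these shares. The rule that chose the 12 widest calls each way required it. In all, 4512 genes (39.2%) passed. The log2 fold change of all tested genes had a median of 0.19. After median-ratio scaling, in which every library is divided by its median ratio to a common reference, that median was 0.00, with 1967 genes (17.1%) higher and 2044 (17.8%) lower, so the excess of increases over decreases rested on the scaling. Without LPS+XJDHT replicate 2 the number of genes higher in LPS+XJDHT than in Control was 2977, and the number of genes lower in LPS+XJDHT than in Control was 1144. Fold changes below are on the log2(FPKM + 1) scale, which understates the change of genes with low values, with a standard error from limma and n = 4 in each group. Levels given with ± are means with the SD over the 4 libraries, "rose by" and "fell by" give the log2 fold change, and "rose" and "fell" are used of genes with an adjusted p below 0.05.

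**Figure D1:**
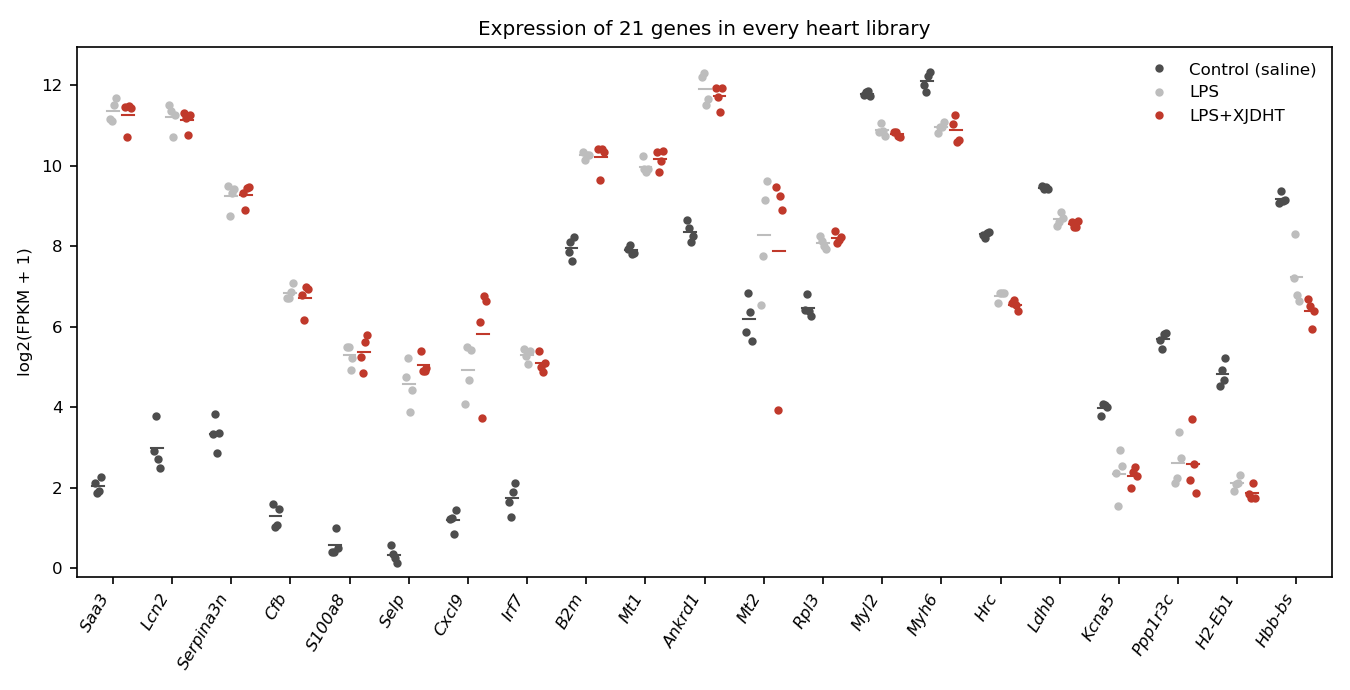
Levels of 21 genes in the 12 libraries, as log2(FPKM + 1) on the vertical axis, 1 dot per library and a bar for the mean of the group, with Control, LPS and LPS+XJDHT side by side. For Saa3 the LPS+XJDHT libraries lie between 1668 and 2858 FPKM and the Control libraries between 2.64 and 3.83 FPKM, and for Mt2 LPS+XJDHT replicate 2 lies at 14.3 FPKM, below every Control library.

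Acute-phase and antibacterial genes led the increases. Of 21 genes of this list tested, 17 rose and the other 4 (Saa1, Saa2, Itih4 and Cd14) did not pass, with a median log2 fold change of 2.71 where the median of all genes was 0.19. Saa3, an acute-phase serum amyloid A made outside the liver (GRCm38, chr7:46711998-46715700), was at 3.39, 2.64, 2.81 and 3.83 FPKM in the 4 Control libraries and at 2823, 1668, 2858 and 2753 FPKM in the 4 LPS+XJDHT libraries (log2 fold change 9.22 ± 0.19, adjusted p = 1.0e-10 by limma with Benjamini-Hochberg adjustment, as in all that follows). Every treated library lay far above every Control library, and replicate 2 was the lowest of the 4. Lcn2, lipocalin 2, which binds the iron carriers of bacteria, was at 6.55, 12.7, 5.62 and 4.66 FPKM in Control libraries and 2552, 2334, 1754 and 2443 FPKM in LPS+XJDHT libraries (log2 fold change 8.15 ± 0.26, adjusted p = 3.8e-09). Both genes thus went from low levels to levels near or above those of the calcium pump gene Atp2a2 in the same hearts, which lay between 1709.6 and 1975 FPKM. Serpina3n, a serine protease inhibitor of the acute phase, was at 9.04, 13.2, 6.36 and 9.30 FPKM in Control and 641, 474, 700.4 and 705 FPKM in LPS+XJDHT (log2 fold change 5.93 ± 0.21). Mouse Serpina3 genes are close copies, so reads may be shared between them. Chil1, a chitinase-like protein of activated macrophages and neutrophils, rose by 5.09 to 76.3 ± 12.4 against 1.29 ± 0.469 FPKM. S100a8 and S100a9, the subunits of the antimicrobial protein calprotectin of neutrophils, rose by 4.80 and 4.53. S100a8 was at 0.322, 0.321, 1.002 and 0.422 FPKM in Control libraries and 37.0, 27.9, 48.2 and 54.8 FPKM in LPS+XJDHT libraries. Lbp, which carries LPS to CD14, rose by 2.71, and its lowest treated value, 14.9 FPKM in replicate 2, lay above every Control library.

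Among 23 tested chemokine genes, 16 rose and 2 fell (median log2 fold change 1.53), and the increases covered attractants of neutrophils, monocytes and lymphocytes. Cxcl1, which draws neutrophils through CXCR2, was at 0.561, 0.595, 1.21 and 0.397 FPKM in Control and 38.6, 41.7, 23.5 and 38.7 FPKM in LPS+XJDHT libraries (log2 fold change 4.43 ± 0.32, adjusted p = 2.1e-06). Cxcl5, another CXCR2 ligand, rose by 4.58 to 28.1 ± 8.59 FPKM. Ccl2, the main attractant of CCR2-bearing monocytes, was at 3.08, 4.29, 1.61 and 1.94 FPKM in Control and 60.6, 62.3, 39.5 and 52.1 FPKM in LPS+XJDHT (log2 fold change 3.91 ± 0.25). In these neutrophil and monocyte attractants no treated library overlapped a Control library. Cxcl13, the B-cell attractant, was listed at 0 in all 4 Control libraries and at 24.8, 29.5, 52.0 and 31.7 FPKM in LPS+XJDHT libraries, with an adjusted p of 4.0e-06 by limma. Cxcl9, a ligand of CXCR3 on activated T cells that interferon gamma induces, was at 1.36, 1.40, 0.801 and 1.73 FPKM in Control and 68.4, 12.4, 108 and 99.5 FPKM in LPS+XJDHT (log2 fold change 4.62 ± 0.57). Replicate 2, at 12.4 FPKM, was well below the other treated libraries and still above every Control library. The 2 chemokines that fell were Cxcl12, which retains leukocytes and progenitors in tissue and signals through CXCR4 (23.5 ± 5.88 against 39.7 ± 4.76 FPKM), and Ccl6 (12.9 ± 1.84 against 27.8 ± 11.97 FPKM). Ccl6 lost its call without Control replicate 1 (adjusted p = 0.051 by limma).

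The promoters of 2 neutrophil attractants are shown because both hold several matches to the NF-kB core within 80 bases. The search used the RefSeq promoter windows of GRCm38.p6, 250 bases before each start, on both strands, for GGG, any 2 bases and TTTCC, or GGGA, any 4 bases and CC, forms that can overlap each other. Capitals mark the matches, and each sequence reads 5′ to 3′ on the strand of its gene.
Cxcl1 (chr5:90891130-90891209, plus strand): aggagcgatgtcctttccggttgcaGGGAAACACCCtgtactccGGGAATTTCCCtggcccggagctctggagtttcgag
Cxcl2 (chr5:90903777-90903855, plus strand): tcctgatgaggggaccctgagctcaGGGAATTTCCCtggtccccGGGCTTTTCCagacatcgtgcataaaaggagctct
A match was found in 12 of 23 chemokine genes of the promoter table (52.17%), in 8 of 21 acute-phase genes (38.1%) and in 26.68% of all 8393 tested genes that the table holds. Of the 12 chemokine genes with a match 7 rose, 2 did not pass and 3 were not tested, and of the 11 without one 5 rose, 2 fell, 1 did not pass and 3 were not tested. A match is a string of letters and not evidence of binding, and the chemokine search was added after values were seen.

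Of 25 interleukin and TNF family ligands and receptors tested, 19 rose and 3 fell (median log2 fold change 1.06). The ligands Il6 and Tnf were at low levels in both groups. Il6, the main inducer of the acute phase, was at 0.0509, 0.131, 0.0439 and 0.0221 FPKM in Control and 6.83, 4.47, 2.55 and 3.997 FPKM in LPS+XJDHT libraries (log2 fold change 2.31 ± 0.40, adjusted p = 9.4e-04). Tnf, the early cytokine of the LPS response, was at 0.0647, 0.187, 0.0314 and 0.0316 FPKM in Control and 0.331, 1.20, 0.363 and 0.557 FPKM in LPS+XJDHT, a separation that passed with an adjusted p of 0.030 by limma and was lost without any 1 of Control replicates 1, 3 and 4 and LPS+XJDHT replicates 2 and 4, at adjusted p of 0.056 to 0.072. Il1b and Nlrp3, both central to the inflammasome, were below the limit for testing. Il33, an alarm cytokine of stromal cells and endothelium, rose by 3.14 to 24.4 ± 5.01 against 1.87 ± 0.524 FPKM, and the receptor chain Il4ra rose by 2.29. The 3 that fell were all receptors: Lifr, the receptor of leukaemia inhibitory factor (2.47 ± 0.505 against 6.94 ± 0.900 FPKM), Il10ra and Il15ra.

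Of 34 genes of LPS recognition and NF-kB signalling 19 rose and the other 15 did not pass, with a median of 0.98. The receptor that senses LPS was not among the increases: Tlr4 was at 8.57, 7.22, 6.62 and 7.71 FPKM in Control and 3.27, 6.76, 2.40 and 5.55 FPKM in LPS+XJDHT libraries (adjusted p = 0.17 by limma), with overlapping groups. Tnfaip3, the A20 enzyme that limits NF-kB signalling, was at 0.192, 0.680, 0.349 and 0.709 FPKM in Control and 10.4, 8.20, 7.22 and 10.3 FPKM in LPS+XJDHT (log2 fold change 2.76 ± 0.22). The NF-kB subunit genes Nfkb1 and Rela did not pass. Of 20 JAK-STAT and SOCS genes 11 rose and 1, Stat5b, fell, with a median of 0.46, and with median-ratio scaling 7 rose and 2 fell. Socs3, the feedback inhibitor of interleukin 6 signalling, rose by 2.39 to 19.2 ± 3.29 against 2.82 ± 0.494 FPKM. Stat3, which carries the interleukin 6 signal, rose by 1.26.

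Interferon-stimulated genes and class I antigen presentation rose together. Of 43 interferon-stimulated genes 35 rose and 1 fell (median log2 fold change 1.64), or 32 and 1 with median-ratio scaling. Irf7, the interferon-induced regulator that amplifies type I interferon, was at 2.16, 1.41, 2.72 and 3.39 FPKM in Control and 41.4, 31.2, 28.6 and 33.4 FPKM in LPS+XJDHT libraries (log2 fold change 3.36 ± 0.18, adjusted p = 3.0e-07). Iigp1, an interferon-induced GTPase that attacks the vacuoles of intracellular pathogens, rose by 4.48 to 76.5 ± 30.8 against 3.17 ± 2.92 FPKM. Ifitm3, a membrane protein that blocks viral entry, rose by 2.62, and Bst2, which tethers budding virus to the cell, by 2.11. The 1 gene that fell was Irf1, the interferon gamma-responsive activator, at 9.05, 8.22, 9.20 and 5.81 FPKM in Control and 0.876, 0.706, 2.82 and 3.81 FPKM in LPS+XJDHT (log2 fold change -1.69 ± 0.45, adjusted p = 0.012). All 4 treated libraries lay below all Control libraries for Irf1, replicates 1 and 2 more so than 3 and 4. The 7 that did not pass include Mx1, Oas2 and Ifi44, classical antiviral effectors.

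The promoters of 3 interferon-responsive genes are shown because their matches to the core of the interferon-stimulated response element (GAAA, any 2 bases and GAAA) lie within the window before the start, more than once in Ifit1 and Isg15. The search covered both strands of the same RefSeq GRCm38.p6 windows, so that a match on the opposite strand reads TTTC, any 2 bases and TTTC. Capitals mark the matches, which overlap each other in Isg15, and the sequences read 5′ to 3′ on the strand of the gene.
Ifit1 (chr19:34640760-34640838, plus strand): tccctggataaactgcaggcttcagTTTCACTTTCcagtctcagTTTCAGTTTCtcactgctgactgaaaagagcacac
Isg15 (chr4:156200850-156200921, minus strand): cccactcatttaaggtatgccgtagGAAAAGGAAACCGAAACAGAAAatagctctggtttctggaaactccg
B2m (chr2:122147523-122147582, plus strand): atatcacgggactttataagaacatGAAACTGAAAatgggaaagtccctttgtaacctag
The core was found in 15 of 32 interferon-stimulated genes of the promoter table (46.88%) and in 3.134% of all tested genes it holds. Of the 15, 14 rose and 1 was not tested, and of the 17 without the core 13 rose, 1 fell and 3 did not pass. No test was made of the difference between those with and without the core. In class I presentation, the list of B2m, 3 of 18 genes held the core (16.67%), and the 15 without it rose as well. Ifit1, which binds viral RNA, was at 2.85, 2.64, 1.67 and 2.69 FPKM in Control and 93.8, 41.3, 31.4 and 47.5 FPKM in LPS+XJDHT libraries (log2 fold change 3.87 ± 0.42). Isg15, a ubiquitin-like protein attached to other proteins during infection, was at 6.23, 4.56, 5.76 and 5.46 FPKM in Control and 58.5, 37.4, 25.7 and 32.2 FPKM in LPS+XJDHT (log2 fold change 2.54 ± 0.32). These genes with shown promoters, other than B2m and Cxcl1, were chosen after their values were seen.

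All 20 class I presentation and immunoproteasome genes tested rose (median log2 fold change 1.96), and 17 did so with median-ratio scaling. B2m, the light chain of every class I molecule, was at 232, 274, 198 and 300.1 FPKM in Control and 1374, 795, 1368 and 1303 FPKM in LPS+XJDHT libraries (log2 fold change 2.25 ± 0.18, adjusted p = 3.9e-06). Replicate 2 had the smallest increase of the 4, at 795 FPKM. H2-D1, a classical class I heavy chain with close copies in the genome, rose by 2.27 to 267 ± 58.9 against 53.5 ± 3.40 FPKM. Class II presentation, by which professional antigen-presenting cells show peptides to CD4+ T cells, moved the other way: 5 of 7 genes fell, 1 (Ctss, the protease cathepsin S, which also acts in other pathways) rose and H2-DMb1 did not pass, with a median of -2.12. H2-Eb1, a class II beta chain, was at 22.04, 29.3, 24.9 and 36.3 FPKM in Control and 2.62, 2.38, 3.39 and 2.36 FPKM in LPS+XJDHT (log2 fold change -2.97 ± 0.16, adjusted p = 3.0e-07). Cd74, the invariant chain that guides class II molecules, fell by 2.30, and H2-Aa fell by 2.89. No treated library reached the lowest Control library for H2-Eb1. In whole-heart RNA, fewer cells of a type and less RNA per cell cannot be told apart, and the same holds for more. Markers of resident macrophages did not fall together beside class II: of 12 tested, 1 (Cd68) rose (2 without replicate 2), 2 fell and 9 did not pass, with a median of 0.12. Dendritic-cell markers were mostly not measured, with 2 of 9 tested and neither called.

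Of 9 neutrophil markers tested all 9 rose, and their summed level was 6.97 to 14.3 FPKM in Control libraries and 1887 to 2666 FPKM in LPS+XJDHT libraries. Lcn2, which other cells also make, accounts for most of that sum. The markers Cxcr2 and Ly6g were not among the genes compared, and Ltf, Camp and Csf3r were below the limit for testing. A marker near 0 in Control libraries met that limit only through LPS-treated libraries, where it was high. The choice of markers thus favoured increases, and no conclusion is drawn from 9 of 9. Of 9 monocyte markers tested 6 rose, with a summed level of 23.8 to 27.9 FPKM in Control and 50.2 to 76.7 FPKM in LPS+XJDHT libraries. Of 13 T-cell and natural killer markers 1 could be tested, Gzma, the granule protease granzyme A, at 0.347, 0, 0 and 0 FPKM in Control and 2.56, 0.508, 3.95 and 2.47 FPKM in LPS+XJDHT libraries, and of 9 B-cell markers none could be tested. The part of these cells in the immune gene lists was not tested.

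Of 20 complement genes 9 rose and the other 11 did not pass. Cfb, factor B of the alternative pathway, was at 2.02, 1.03, 1.12 and 1.76 FPKM in Control and 109, 71.6, 127 and 122 FPKM in LPS+XJDHT libraries (log2 fold change 5.44 ± 0.19, adjusted p = 8.4e-09). C1ra, a protease of the classical pathway, rose by 2.71, while the 3 genes of its recognition molecule, C1qa, C1qb and C1qc, did not pass. In the list of endothelial adhesion, junction and coagulation genes, 10 of 33 rose, near the 28.5% of all genes, and 5 fell, or 9 and 9 with median-ratio scaling, and the median of 0.08 lay below that of all genes. The increases led with molecules that let leukocytes adhere to vessel walls. Icam1, the ligand of leukocyte integrins, was at 6.43, 6.55, 7.36 and 7.02 FPKM in Control and 66.4, 74.0, 68.4 and 67.1 FPKM in LPS+XJDHT (log2 fold change 3.16 ± 0.096, adjusted p = 3.6e-09), with the 4 treated libraries close together. Selp, P-selectin, rose by 4.72 to 32.5 ± 6.09 against 0.269 ± 0.167 FPKM, and Sele, E-selectin, by 3.24, from at most 0.0183 FPKM in the Control libraries to 8.55 ± 1.06 FPKM. Aplnr, the apelin receptor, fell by 2.13 (0.562 ± 0.243 against 5.83 ± 0.812 FPKM), and Apln, its ligand, by 1.41. Thbd, Angpt1 and Vegfa were the others that fell. Of 12 endothelial identity markers 5 rose, 2 of 12 with median-ratio scaling, and 7, Pecam1 and Cdh5 among them, did not pass.

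The extracellular matrix list, with 41 genes tested, held 18 that rose and 5 that fell, beside 28.5% and 10.7% of all genes tested. Timp1, an inhibitor of metalloproteinases, was at 8.16, 10.1, 3.73 and 4.73 FPKM in Control and 154, 95.4, 156 and 149 FPKM in LPS+XJDHT libraries (log2 fold change 4.24 ± 0.29). Mmp3, the metalloproteinase stromelysin, rose by 4.18 to 108 ± 21.5 against 5.09 ± 1.72 FPKM. Lox, the enzyme that cross-links collagen, rose by 3.26. Postn, Thbs1, Timp2, Col8a1 and Col15a1 fell, a share near that of all genes tested. Of 12 fibroblast markers 4 rose and 2 (Gsn and Dpt) fell, 1 without replicate 2, counts that lay near the same shares over all genes.

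Of 20 metallothionein, iron and haem genes 7 rose and 1 fell, beside 28.5% and 10.7% of all genes tested. Mt1, a zinc-binding metallothionein, rose by 2.26 to 1160.5 ± 191 against 239 ± 17.9 FPKM. Its close copy Mt2 was at 57.8, 114, 81.5 and 49.5 FPKM in Control and 710.3, 14.3, 608 and 476 FPKM in LPS+XJDHT libraries, so that replicate 2 lay below every Control library and the other 3 far above (log2 fold change 1.70 ± 1.10, adjusted p = 0.25). Without replicate 2 Mt2 passed, with an adjusted p of 0.0037 by limma. Hmox1, haem oxygenase, which breaks down haem, was at 8.33, 8.18, 5.69 and 5.71 FPKM in Control and 82.9, 37.8, 44.5 and 82.3 FPKM in LPS+XJDHT (log2 fold change 2.91 ± 0.33), and Cp, the ferroxidase ceruloplasmin, rose by 2.26. Tfrc, the receptor for iron-loaded transferrin, fell by 1.50, a call lost with any 1 of 6 libraries left out (Control replicates 2, 3 and 4 and LPS+XJDHT replicates 1, 3 and 4), at adjusted p of 0.065 to 0.092 by limma. Of 31 antioxidant and NRF2 target genes 17 rose and 3 fell, or 14 and 6 with median-ratio scaling, and the 3 that fell were Prdx2 and, of the mitochondrial enzymes, Sod2 and Txn2. Sod2, the manganese superoxide dismutase, was at 79.2, 77.6, 82.8 and 86.4 FPKM in Control and 8.40, 8.82, 54.6 and 54.3 FPKM in LPS+XJDHT (log2 fold change -1.84 ± 0.53, adjusted p = 0.017). Its treated libraries fell into 2 low and 2 less low values, all below Control. Of 15 enzymes of arginine, nitric oxide and prostanoid metabolism 8 rose, or 3 with median-ratio scaling and 11 without replicate 2. Arg1, arginase 1, rose by 2.97 to 7.48 ± 1.09 against 0.0834 ± 0.167 FPKM, and Nos2, inducible nitric oxide synthase, was at 2.76 ± 0.402 against 1.74 ± 0.334 FPKM, with a call lost with median-ratio scaling or without any 1 of Control replicates 1 and 3 and LPS+XJDHT replicates 1 and 4, at adjusted p of 0.052 to 0.12 by limma.

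Of 25 sarcomere genes 10 fell, 1 (Des, the intermediate filament desmin) rose and 14 did not pass (median log2 fold change -0.30), and 12 fell and 1 rose with median-ratio scaling. Myh6, the fast alpha-myosin heavy chain of the adult mouse ventricle, was at 4123, 3664, 4809 and 5186 FPKM in Control and 2106, 2443, 1536 and 1589 FPKM in LPS+XJDHT libraries (log2 fold change -1.23 ± 0.15, adjusted p = 9.9e-05). Every treated library was below every Control library, and replicate 2 was the highest of the 4. Its slow counterpart Myh7 was at 60.2, 39.1, 53.0 and 62.9 FPKM in Control and 52.5, 43.2, 174 and 66.9 FPKM in LPS+XJDHT, which overlap (log2 fold change 0.43 ± 0.43, adjusted p = 0.46). Myl2, the ventricular regulatory light chain, fell by 1.01 ± 0.070 (1767 ± 69.2 against 3554 ± 148 FPKM). Tnni3, cardiac troponin I, was at 822, 789.5, 876 and 491 FPKM in Control and 80.3, 177, 155 and 176 FPKM in LPS+XJDHT (log2 fold change -2.36 ± 0.33), the widest fall of the list. Tnnt2, cardiac troponin T, did not pass. Smyd1, a muscle methyltransferase needed for sarcomere assembly, fell by 0.91 and was the 1 of 17 cardiac transcription regulators that fell, against 5 that rose. With median-ratio scaling 1 rose and 2 fell, and without replicate 2 the counts were 5 and 2. In the main comparison 28.5% of all genes tested rose and 10.7% fell.

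Calcium handling followed, with 7 of 20 genes lower and 2 higher, among them Sri, the calcium-binding protein sorcin, or 1 higher without replicate 2 and with median-ratio scaling. Atp2a2, the SERCA2 pump that refills the sarcoplasmic reticulum, was at 2843, 2589, 3023 and 3315 FPKM in Control and 1839.5, 1975, 1851 and 1709.6 FPKM in LPS+XJDHT libraries (log2 fold change -0.67 ± 0.13, adjusted p = 0.0023), with no overlap. Pln, its inhibitor phospholamban, was at 352 ± 74.5 against 377 ± 27.00 FPKM (adjusted p = 0.83 by limma). Hrc, a calcium-binding protein of the same store, fell by 1.75 (92.7 ± 7.45 against 314 ± 14.7 FPKM), and Asph, whose locus encodes the junctional protein junctin, by 1.59. Of 24 potassium and sodium channel genes 10 fell and the rest did not pass, and without replicate 2 the counts were 8 lower and 1 higher, with a median over all 4 of -0.52. Kcna5 and Kcnd2, which carry repolarizing potassium currents, fell by 1.69 and 1.16, and Scn4b, a beta subunit of the sodium channel, by 1.54. In beta-adrenergic and cyclic AMP signalling 6 of 20 rose and 2 (Adcy5, a cardiac adenylyl cyclase, and Grk5) fell, or 4 and 6 with median-ratio scaling. The unscaled counts lay near the shares over all genes tested, 28.5% higher and 10.7% lower.

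The genes of cardiac wall stress did not move as a group. Of 20, 6 rose, near the 28.5% of all genes, and 1 fell, where 10.7% of all genes did, or 5 and 2 with median-ratio scaling. Ankrd1, a titin-bound stress sensor, was at 401, 348, 273 and 305 FPKM in Control and 3909.5, 3347, 2592 and 3892 FPKM in LPS+XJDHT libraries (log2 fold change 3.36 ± 0.20, adjusted p = 6.6e-07). Nppb, brain natriuretic peptide, went the other way, at 133, 123, 66.4 and 167 FPKM in Control and 48.4, 56.4, 33.3 and 36.3 FPKM in LPS+XJDHT (log2 fold change -1.43 ± 0.38, adjusted p = 0.011). The highest treated value of Nppb lay below the lowest Control value. Nppa, atrial natriuretic peptide, was at 282, 261, 78.3 and 327 FPKM in Control and 208, 420.2, 276 and 172 FPKM in LPS+XJDHT, which overlap (log2 fold change 0.28 ± 0.55, adjusted p = 0.72). Markers of cardiomyocytes fell with these lists, with 8 of 12 lower and Tnnt2, Ryr2, Pln and Actn2 not passing. They are largely the same genes as the sarcomere list, and whether fewer cardiomyocytes were sampled was not tested.

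**Figure D2:**
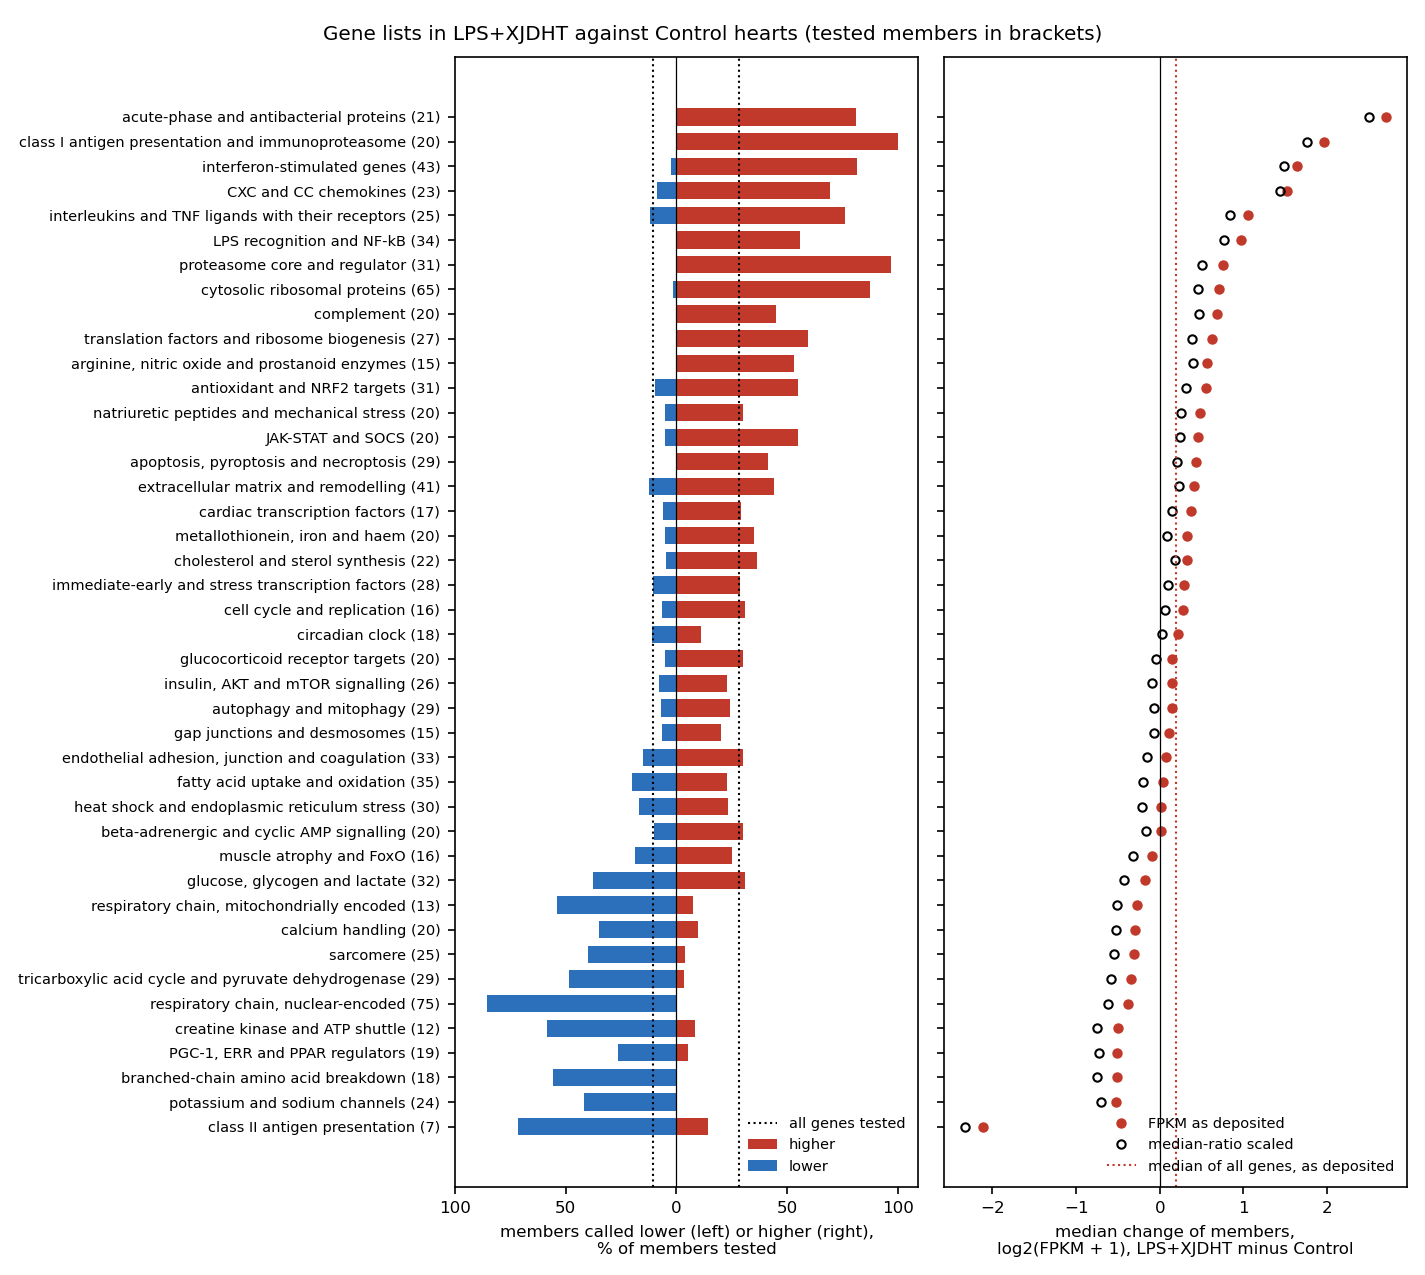
Share of each of 42 gene lists that was lower (left) or higher (right) in LPS+XJDHT than in Control hearts, in percent of the genes tested, with dotted lines at the shares over all genes (10.7% and 28.5%), beside the median log2 fold change of each list as deposited and after median-ratio scaling. Class I presentation and the proteasome have the largest shares higher, with 20 of 20 and 30 of 31 genes. The nuclear-encoded respiratory chain has the largest share lower, with 64 of 75 genes.

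Of 75 nuclear-encoded respiratory chain genes 64 fell, the other 11 did not pass, and the median was -0.38, or -0.62 with median-ratio scaling, where 71 fell. The fall covered every complex: 28 of 36 genes of complex I, the NADH dehydrogenase, all 4 of complex II, all 9 of complex III, 10 of 11 of complex IV, the cytochrome oxidase, and 12 of 14 of the ATP synthase. The medians of these complexes lay between -0.35 and -0.41, and single genes ran from -1.29 (Ndufa11) to 0.14 (Ndufv1, which did not pass). Cox7a1, the heart and muscle form of a complex IV subunit, was at 706, 878, 698 and 676 FPKM in Control and 449, 418, 387 and 397 FPKM in LPS+XJDHT libraries (log2 fold change -0.83 ± 0.10, adjusted p = 8.9e-05). Atp5g1, a membrane-ring subunit of the ATP synthase, fell by 0.56, and Cox8b by 0.75. For Cox7a1 every treated library lay below every Control library.

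Of the 13 protein-coding genes of the mitochondrial genome 7 fell and 1 rose. mt-Co1, the catalytic subunit of cytochrome oxidase, was at 79751, 79321, 76052 and 70961 FPKM in Control and 62866, 63067, 63555 and 64304 FPKM in LPS+XJDHT libraries (log2 fold change -0.27 ± 0.050, adjusted p = 0.0014). mt-Atp6, which overlaps mt-Atp8 on the same transcript, was at 4119, 4598, 3927 and 3617 FPKM in Control and 18199, 19877, 15519 and 19255 FPKM in LPS+XJDHT (log2 fold change 2.16 ± 0.56, adjusted p = 0.010). In the group LPS it was at 3103, 21197, 3622 and 21246 FPKM, so that 2 LPS libraries lay at the Control level and 2 at the level of LPS+XJDHT. All genes of the mitochondrial genome together took 45.3% ± 1.23 of the summed FPKM in Control and 42.0% ± 1.58 in LPS+XJDHT libraries (SD, n = 4), a difference of -3.31 percentage points with a two-sided exact permutation p of 0.0286, the smallest that 4 against 4 libraries can give. Among protein-coding genes alone the difference was -5.35 percentage points.

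The feeder pathways behaved unequally. Of 29 tricarboxylic acid cycle and pyruvate dehydrogenase genes 14 fell and 1 rose, with a median of -0.34. Idh3a, a subunit of the rate-setting isocitrate dehydrogenase, fell by 0.86, Mdh1, the cytosolic malate dehydrogenase, by 0.83, and Pdhb, a subunit of pyruvate dehydrogenase, by 0.83. Mdh2, the mitochondrial malate dehydrogenase, did not pass. The 1 that rose was Pdk4, the kinase that shuts pyruvate dehydrogenase off, at 287, 322, 277 and 330.2 FPKM in Control and 869.6, 372, 620.5 and 742 FPKM in LPS+XJDHT libraries (log2 fold change 1.03 ± 0.25, adjusted p = 0.0076). Replicate 2, at 372 FPKM, was only a little above the highest Control library. Of 35 genes of fatty acid uptake and oxidation 8 rose and 7 fell, beside 28.5% and 10.7% of all genes tested, or 4 and 14 with median-ratio scaling. The 8 included Plin2, which coats lipid droplets (log2 fold change 2.77), and Cd36, the fatty acid transporter (0.70), and also the oxidation enzymes Acadl and Eci2. The 7 were Acsl1, which activates fatty acids, and genes of oxidation such as Acadm, the medium-chain acyl-CoA dehydrogenase (-0.67). Cpt1b, which admits fatty acids to muscle mitochondria, did not pass (0.16, adjusted p = 0.38 by limma). Of 19 regulators of this programme 5 fell and 1 (Ncor1) rose, a call lost with median-ratio scaling. Esrra, the estrogen-related receptor alpha, fell by 0.93, and Perm1, a muscle regulator of the same programme, by 1.73 (16.1 ± 6.42 against 53.8 ± 9.62 FPKM). Ppargc1a itself was at 1.13, 2.15, 2.52 and 8.96 FPKM in Control and 1.02, 2.34, 2.20 and 1.02 FPKM in LPS+XJDHT (adjusted p = 0.30 by limma), a range too wide to pass.

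Glucose genes split, with 10 of 32 higher and 12 lower, beside 28.5% and 10.7% of all genes tested, or 6 and 15 with median-ratio scaling. Ppp1r3c, which directs a phosphatase to glycogen, was at 50.4, 42.5, 55.6 and 56.3 FPKM in Control and 3.58, 12.1, 4.998 and 2.69 FPKM in LPS+XJDHT (log2 fold change -3.10 ± 0.37, adjusted p = 7.4e-05), and a second glycogen-targeting subunit, Ppp1r3a, rose by 1.60. Pfkfb3, which makes the activator of phosphofructokinase, rose by 2.26, while the muscle enolase Eno3 fell by 1.52 and the heart lactate dehydrogenase chain Ldhb by 0.91. Of 12 genes of creatine kinase and the ATP shuttle 7 fell and 1 (Vdac3) rose. Ckm, the muscle creatine kinase, fell by 1.03 and Ckb by 1.51. Of 18 genes of branched-chain amino acid breakdown 10 fell and 8 did not pass.

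**Figure D3:**
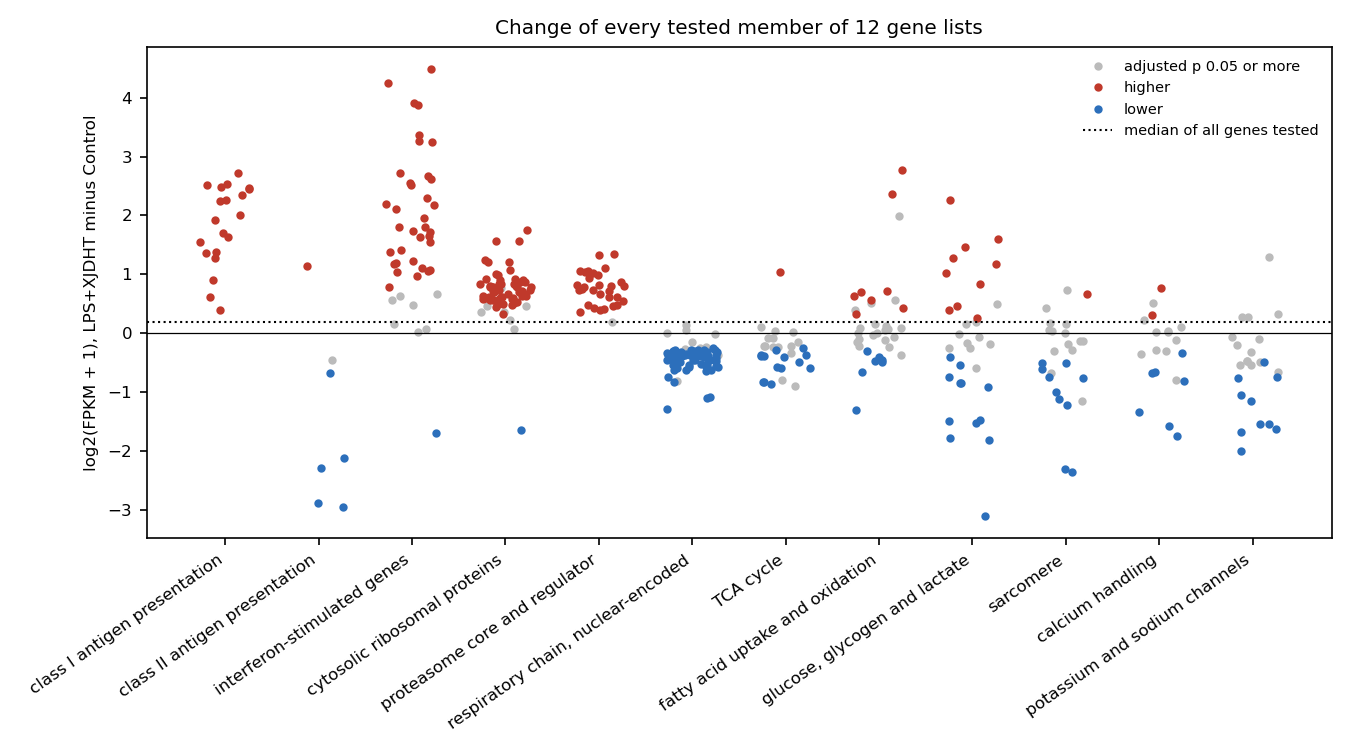
Log2 fold change of LPS+XJDHT against Control for every tested gene of 12 lists, 1 dot per gene. Dots are red (higher) or blue (lower) where the adjusted p is below 0.05 and grey elsewhere. Nuclear-encoded respiratory chain genes lie in a narrow band whose median is -0.38, and class II genes have a median of -2.12.

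Most genes of cytosolic ribosomal proteins and of the proteasome rose. Of 65 cytosolic ribosomal protein genes 57 rose, 1 fell and 7 did not pass, with a median of 0.71, and 45 rose with median-ratio scaling. Rpl3, a protein of the large subunit, was at 85.1, 111, 83.7 and 76.0 FPKM in Control and 333, 272, 285 and 301 FPKM in LPS+XJDHT libraries (log2 fold change 1.74 ± 0.12, adjusted p = 1.5e-06). Rpl3l, its striated-muscle paralog, which replaces Rpl3 in muscle ribosomes, was the 1 that fell, by 1.64 (34.3 ± 3.20 against 109 ± 11.1 FPKM). The pair thus moved in opposite directions in the same hearts. Processed pseudogenes, many of them copies of ribosomal protein genes that can share reads, rose in 35.4% of 618 tested and fell in 4.05%. Of 31 proteasome genes 30 rose and Psma4 did not pass, with a median of 0.75, and 24 rose with median-ratio scaling. Of 27 translation factors 16 rose and 11 did not pass. Of 29 genes of cell death 12 rose and 17 did not pass, and 2 fell with median-ratio scaling and 1 without replicate 2. Casp4, the caspase that binds LPS inside cells, rose by 1.99, and Bax, which permeabilizes mitochondria, by 0.84. The survival gene Bcl2 was at 1.37 ± 0.183 against 1.25 ± 0.250 FPKM (adjusted p = 0.69 by limma).

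Haemoglobin RNA fell. Of 5 erythroid markers tested all 5 fell, with a median of -2.79, and their summed level was 1275 to 1379 FPKM in Control and 124.7 to 252.8 FPKM in LPS+XJDHT libraries. Hba-a1, an alpha-globin gene, was at 217, 239, 267 and 245 FPKM in Control and 48.8, 59.6, 26.5 and 29.7 FPKM in LPS+XJDHT (log2 fold change -2.60 ± 0.33). Hba-a1 and Hba-a2, and Hbb-bs and Hbb-bt, are near-identical pairs whose reads may be split, and the 4 moved together, by -2.60, -3.03, -2.79 and -2.82. Among other wide decreases were Cytl1, a cytokine-like protein (2.91 ± 1.36 against 22.5 ± 5.99 FPKM), C1qtnf9, a secreted relative of adiponectin (3.02 ± 0.832 against 21.6 ± 2.77 FPKM), and Efnb3, an ephrin ligand (2.03 ± 0.621 against 18.9 ± 3.90 FPKM).

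The remaining lists changed in few members or both ways. Their counts are to be read beside the 28.5% of all genes tested that rose and the 10.7% that fell. Of 18 circadian clock genes 2 rose, 1 of 18 with median-ratio scaling, and 2 fell. Arntl, which encodes the clock activator BMAL1, fell by 1.30 (0.266 ± 0.181 against 2.18 ± 0.832 FPKM), and its output gene Dbp by 1.22, whereas Per1, Cry1 and Nr1d1 did not pass. Of 30 heat shock and endoplasmic reticulum stress genes 7 rose and 5 fell, or 2 and 6 with median-ratio scaling, and Hsph1, a co-chaperone of HSP70, fell by 1.52. Of 28 immediate-early genes 8 rose and 3 fell, or 5 and 4 with median-ratio scaling. Of 20 glucocorticoid targets 6 rose, near the 28.5% of all genes, and 1 (Rhob) fell. In insulin and mTOR signalling 6 of 26 rose and 2 fell, 5 and 5 with median-ratio scaling and 5 and 1 without replicate 2, and Akt1 was at 63.4 ± 10.2 against 56.9 ± 4.96 FPKM (adjusted p = 0.37 by limma). Of 29 autophagy genes 7 rose and 2 fell, or 2 and 6 with median-ratio scaling. Of 16 muscle atrophy genes 4 rose and 3 fell, or 3 and 5 with median-ratio scaling, and the ubiquitin ligases Trim63 and Fbxo32 did not pass. Sterol synthesis genes rose in 8 of 22 and 1, Sc5d, fell, or 3 and 3 with median-ratio scaling.

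**Figure D4:**
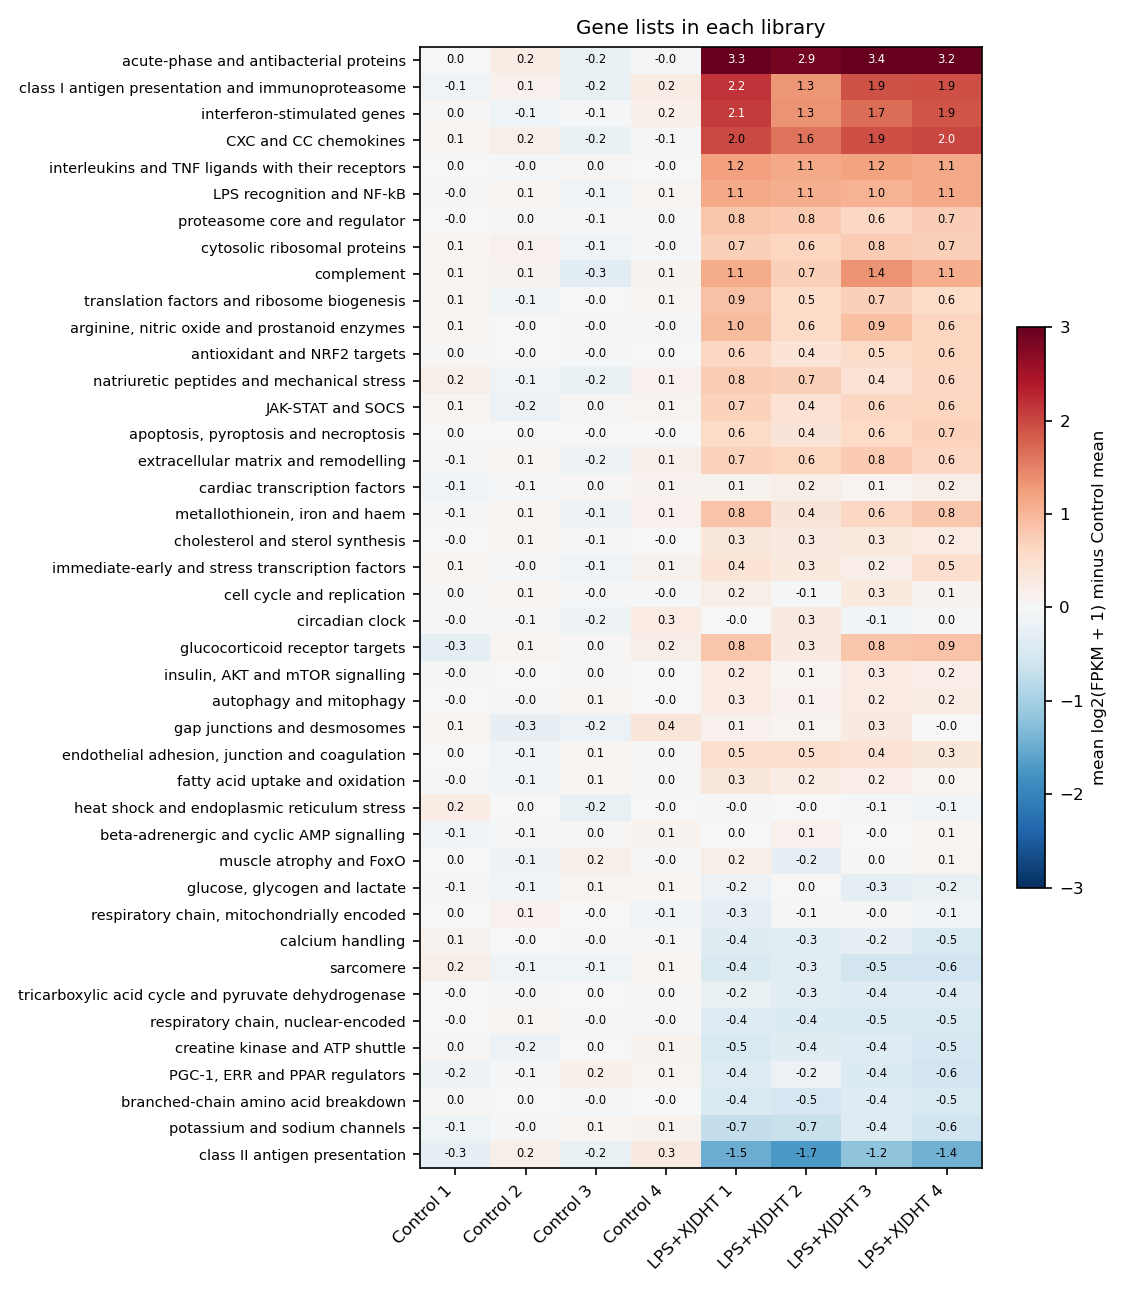
Mean level of each of 42 gene lists in the 8 libraries, as the mean of log2(FPKM + 1) over the tested genes of the list minus its mean over the 4 Control libraries, coloured from lower to higher. All 4 LPS+XJDHT libraries are above the Control mean in class I presentation and below it in class II presentation and in the nuclear-encoded respiratory chain. Replicate 2 is the palest of them in class I presentation, at 1.3 against 1.9 to 2.2 in the other 3.

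The 4 LPS+XJDHT libraries did not vary equally. The SD over the 4 libraries on the log2(FPKM + 1) scale had a median of 0.206 over all tested genes in LPS+XJDHT and 0.183 in Control, and was wider in LPS+XJDHT in 55.0% of genes. Replicate 2 was the lowest library in 20 of 42 lists, replicate 4 in 12, replicate 3 in 8 and replicate 1 in 2. In interferon-stimulated genes replicate 2 stood 1.3 above the Control mean and the others 1.7 to 2.1. Without replicate 2, counts moved little: 33 of 43 interferon-stimulated genes, all 20 class I genes, 18 of 21 acute-phase genes and 17 of 23 chemokines were higher, and 64 of 75 nuclear respiratory chain genes were lower. Some abundant transcripts were near or at 0 in a single library. Mir8114 was at 0.122, 199.9, 173 and 204 FPKM in the LPS+XJDHT libraries, and Rpl41, a ribosomal protein gene with a very short message, at 198, 261, 0 and 191 FPKM. An annotated second gene model of Nnt, the mitochondrial transhydrogenase known to be deleted in part in the C57BL/6J substrain, was at 80.5 FPKM in LPS+XJDHT replicate 1 and 85.3 FPKM in Control replicate 3 and at 0 in the other libraries of these groups.

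At the level of single transcripts, 3464 of 18644 (18.6%) were higher and 1371 (7.35%) lower by limma, 25.9% in all, and 120 of the 4072 genes with a called transcript had transcripts called in opposite directions. Transcripts with a retained intron were higher in 16.8% and lower in 3.81% of 2255. Sparc, a matrix protein gene, shows how such a pair can part from its group. Sparc-201 was at 22.2, 203, 172 and 176 FPKM and Sparc-202 at 183, 20.5, 18.3 and 18.04 FPKM in the 4 Control libraries, so that replicate 1 had the form that prevails in the LPS+XJDHT libraries (242, 240.0, 259.8 and 235 FPKM of Sparc-202). Transcripts of 1 gene share most of their reads, and how the shares were estimated is not given in the sources used here.

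**Figure D5:**
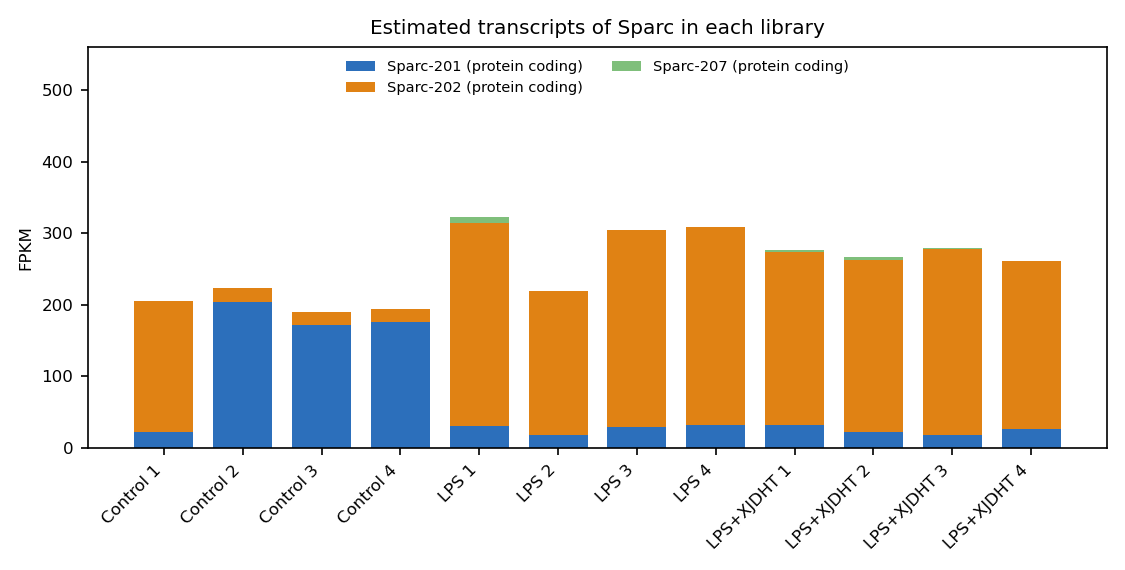
Stacked FPKM of the tested transcripts of Sparc in each of the 12 libraries, 1 bar per library and 1 colour per transcript. In Control replicates 2, 3 and 4 Sparc-201 makes up most of the bar, and in Control replicate 1 and the 4 LPS+XJDHT libraries Sparc-202 does.

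The group LPS was compared with LPS+XJDHT directly, because both share the Control libraries and changes against Control cannot separate them. Of 11509 genes 0 were higher (0.0%) and 13 lower (0.113%) in LPS+XJDHT than in LPS by limma, 551 had an unadjusted p below 0.05 in either direction, where 5% of the genes would be 575, and limma-voom on recovered fragments called 0 and 14. No gene of the 42 pathway lists was among the calls. Saa3 differed from LPS by -0.10 (95% interval -0.51 to 0.31) on the log2 scale, Cxcl9 by 0.90 (95% interval -0.36 to 2.15), Myh6 by -0.08 (95% interval -0.41 to 0.25) and Cox7a1 by -0.15 (95% interval -0.37 to 0.07). Each interval leaves room for a change in either direction, and none shows that the groups are alike. Nppb was at 43.6 ± 10.7 FPKM in LPS+XJDHT and 25.6 ± 14.5 FPKM in LPS, a difference of 0.88 (95% interval 0.05 to 1.71) that did not pass after adjustment (adjusted p = 0.99 by limma). The 13 genes that passed are mostly genes of small intestine, alpha-defensins among them, at 1.22 to 8.23 FPKM in LPS. Most of the 13 reached 1 FPKM in LPS libraries alone and met the limit for testing through them. The 2665 transcripts listed in the LPS+XJDHT files alone were not compared, so genes on only in LPS+XJDHT could not be called. The choice of genes thus favoured calls below LPS, and no conclusion is drawn from 0 against 13. Against Control, Ldhc, the lactate dehydrogenase of testis, and the predicted gene Gm38394 were lower, and the other 11 did not pass: Defa24 was at 0, 0, 0 and 0.123 FPKM in Control and 0.129, 0.376, 0 and 0 FPKM in LPS+XJDHT libraries, and Fabp2 at 0, 0, 0.0399 and 0 and 0, 0.149, 0 and 0 FPKM.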

How the data were processed

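Heart RNA of 12 mice was sequenced, 4 each of Control, LPS and LPS+XJDHT. The authors deposited 1 FPKM value per transcript and library, a unit read from the values: they came out as whole fragments, within 0.1 of a fragment, for 98.5% to 98.7% of values tested. The mm10 build and limma are named in the submitters' processing notes without a role. Which aligner and which quantifier were used is not given in the sources used here. Control and LPS files list 36293 transcripts and LPS+XJDHT files 35802. Of the 24760 Ensembl transcripts in both, 24723 were found in the GENCODE annotation of GRCm38 and summed into 12866 genes, and 0 columns of values were left unused. The 8377 transcripts in both without an Ensembl name were not summed. Whether counting used strand is not stated, so overlapping and antisense genes are uncertain.

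A gene was tested if at least 4 of the 12 libraries reached 1 FPKM, on log2(FPKM + 1), a pseudocount of 1, with limma 3.58.1 (R 4.3.3, empirical Bayes with an intensity trend), with 1 mean per group over all 12 libraries and Benjamini-Hochberg adjustment. Tables came from Python 3.11.15 with pandas 2.3.3 and NumPy 2.4.6, figures from matplotlib 3.10.9. The members and lists were chosen with earlier results of these data known. Named genes are the 12 widest calls each way with a mean of at least 5 FPKM and no overlap (predicted genes, clones and Rik genes left out), 3 per list by adjusted p with up to 2 called against the list's direction, a panel of 21 genes, 6 genes with opposed transcripts, 5 each way by p against LPS and the 5 with the widest spread among LPS+XJDHT libraries of at least 20 FPKM. Some genes that this rule selects are not reported here. On simulated data with the 11509 genes of LPS+XJDHT against Control, limma found 90 of 100 genes given a log2 change of 2 and 64 of 100 given a change of 1, beside 7 false calls. No other genes were changed there, whereas 39.2% of genes passed in the data. The shares found are therefore not the recovery rates of the comparison itself. Alternatives were other filters, pseudocounts, scalings, sample quality weights, limma-voom on recovered fragments, the 8 libraries alone, and each library left out. Depth differed little (76.4 ± 1.35, 75.9 ± 1.49 and 75.8 ± 1.69 M fragments in Control, LPS and LPS+XJDHT). Promoter windows are from RefSeq (GRCm38.p6).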

Additional observations from a re-analysis of the deposited data

Results flagged for a closer look

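In 36 of 412 groups of 4 libraries examined, the highest or lowest library lay far from the other 3, by a test that chance meets in about 1 group in 20. Of these, 23 were LPS+XJDHT groups. In 13 of the 23 the distant library was replicate 2, the one that nearly lacked RNA of Y-linked genes. The genes examined were the named genes, some of them chosen for a wide spread among LPS+XJDHT libraries. Those (Rpl41, Mir8114, the second Nnt model, Gm47308 and Mt2) are all among the 23. The choice of genes thus favoured such LPS+XJDHT groups, and the counts cannot be set against 1 group in 20. Replicate 2 was low for Saa3 (1668 FPKM), Timp1 (95.4), Lbp (14.9), Socs3 (14.2), B2m (795), Mcf2l (1.47), Mt2 (14.3) and Ccnd2 (2.13). It was high for Cxcl12 (32.2 FPKM), Perm1 (25.7), Defa20 (0.339), Defa2 (0.246) and Fabp2 (0.149).

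Replicate 1 of LPS+XJDHT was high for Dtnbp1 (43.1 FPKM) and the second Nnt model (80.5), and low for Tnni3 (80.3) and Mir8114 (0.122). Replicate 3 was low for Cxcl1 (23.5 FPKM), Gm47308 (0.124) and Rpl41 (0), and high for Sesn1 (24.8) and Scn4b (2.49). Replicate 4 was high for Pcna (30.0075 FPKM).

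In Control, replicate 2 was low for Hmox2 (26.5 FPKM), Itch (7.03), Ccnd2 (13.7) and Mvd (0), and high for Cox7a1 (878), Arg1 (0.334) and Sele (0.0183). Control replicate 3 was low for Nppa (78.3 FPKM) and Ankrd2 (0), and high for the second Nnt model (85.3) and Fabp2 (0.03995). Control replicate 1 was high for Cxcl5 (0.216 FPKM) and Control replicate 4 for Defa24 (0.1235).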

How the results depend on the processing

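No paired analysis was possible because the labels number different mice in each group and tie no mouse of one group to a mouse of another. Over 206 named genes and their settings, 3384 gene and setting pairs kept direction and side of the threshold, 49 lost the call, 4 gained it and 19 turned direction. Median-ratio scaling moved the genes higher in LPS+XJDHT than in Control to 1967 and the genes lower in LPS+XJDHT than in Control to 2044, the genes at least 2-fold higher in LPS+XJDHT than in Control to 577 and the genes at least 2-fold lower in LPS+XJDHT than in Control to 542, and the transcripts higher in LPS+XJDHT than in Control to 2277 and the transcripts lower in LPS+XJDHT than in Control to 2213. Limma-voom gave 1332 genes higher by at least 2-fold, and a limit of 5 FPKM gave 2225 transcripts higher and 881 lower, with fewer transcripts tested. The genes higher in LPS+XJDHT than in LPS, 0 as reported, were 2 with no filter, 1 with a pseudocount of 0.1, 3 with sample quality weights and 0 to 1 with a library left out, the 1 appearing without LPS+XJDHT replicate 2 or 3. The genes lower in LPS+XJDHT than in LPS, 13 as reported, were 41 with no filter and 1 with a limit of 5 FPKM. The difference in the share of FPKM of mitochondrially encoded genes per library ran from -3.87 to -2.56 percentage points with a library left out, and its exact permutation p was 0.0571 without Control replicate 2 or any LPS+XJDHT library.

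With median-ratio scaling the log2 fold change against Control turned to -0.0401 for Dtnbp1, -0.0133 for Supt20, -0.0894 for Cpt1b, -0.0993 for Akt1, -0.0251 for Itga8, -0.154 for Hmox2, -0.0861 for Gm9821 and -0.0612 for Bcl2. None of these had passed. With a library left out, Nppa ran from -0.185 (without Control replicate 3) to 0.498, Hmox2 from -0.0438 to 0.186, Fabp2 from -0.0141 to 0.0529, Pln from -0.230 to 0.0166, Mir8114 from -1.28 to 1.22 (without LPS+XJDHT replicate 1), Rpl41 from -1.92 to 0.753 (without LPS+XJDHT replicate 3) and the second Nnt model (Nnt|ENSMUSG00000116207) from -1.61 to 1.59, and it was 0.127 with sample quality weights. The cause was not tested. Calls of Tnf, Nos2, Tfrc, Akt2, Jun, Irx3 and Gm47308 were lost with several single libraries left out, that of Ccl6 without Control replicate 1, and those of Pcna, Sparc, Tef, Ncor1, Ctnna1 and Gabarapl2 with median-ratio scaling. The 4 libraries per group limit what could be seen: a change of 1 on the log2 scale was recovered for 64 of 100 genes in simulated data. Far fewer genes were changed there than the 39.2% that passed in the data, so that share is not the recovery rate of the comparison.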

Other observations

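Of 15 gap junction and desmosome genes, which couple heart muscle cells to each other, 3 rose, 1 fell and 11 did not pass. Of all genes tested 28.5% rose and 10.7% fell. The median log2 fold change of the list was 0.11. With median-ratio scaling 2 rose and 1 fell, and the median was -0.07. Gja5, the conduction-system connexin 40, was at 3.11, 2.60, 2.47 and 2.94 FPKM in Control and 1.58, 0.957, 1.81 and 0.876 FPKM in LPS+XJDHT libraries (log2 fold change -0.73 ± 0.18, adjusted p = 0.0078 by limma). The groups did not overlap, as in 42.1% of all genes tested. Pkp2, the desmosomal plakophilin 2, was at 30.9, 30.4, 32.2 and 31.0 FPKM in Control and 61.5, 66.3, 42.7 and 53.1 FPKM in LPS+XJDHT (log2 fold change 0.81 ± 0.14).

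Of 16 cell cycle and replication genes tested 5 rose and 1 fell, beside 28.5% and 10.7% of all genes tested, with a median of 0.28. With median-ratio scaling 2 rose and 1 fell, and the median was 0.07. Cdkn1a, the cell cycle inhibitor p21, was at 69.5, 79.8, 71.9 and 71.9 FPKM in Control and 154, 126, 168 and 171 FPKM in LPS+XJDHT libraries (log2 fold change 1.06 ± 0.16, adjusted p = 3.8e-04 by limma). Ccnd2, cyclin D2, was the gene that fell, at 15.7, 13.7, 15.5 and 15.4 FPKM in Control and 7.86, 2.13, 7.73 and 7.90 FPKM in LPS+XJDHT. Both genes separated the groups without overlap, as did 42.1% of all genes tested.

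Of 7 testis markers tested 5 fell and 2 did not pass, although every library is labelled as heart. Their summed level was 8.08 to 13.3 FPKM in Control, 10.3 to 18.3 FPKM in LPS and 1.71 to 4.23 FPKM in LPS+XJDHT libraries. The low libraries were those whose files list a different set of transcripts, and the cause was not tested.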
